A study of Mus musculus with 24 samples.

Results

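The baseline strain difference was measured in lacrimal glands of placebo (P)-treated female NOD and MRL/lpr mice. Members were chosen by their labels: 3 pools of NOD glands against 3 pools of MRL/lpr glands, each pool on 1 CodeLink (CL) and 1 Affymetrix (Affy) array, which gives 12 of the 24 arrays in the series. The other 12 arrays hold pools of both strains after testosterone (T), and were used to share the estimate of the spread and to ask whether the strain difference was the same under T. MRL/lpr mice were homozygous for the lpr mutation of Fas, were 17 to 18 weeks old when the pellet was implanted and gave pools of 6 mice. NOD mice were 21 weeks old at implantation and gave pools of 2 to 4 mice. The labels give 18 days of treatment for MRL/lpr and 21 days for NOD, and the study's methods describe the length differently. Pellets of both groups held vehicle without hormone. Strain, age, days of treatment and the number of mice in a pool changed together, so that their parts in a difference cannot be told apart. There was no group of a strain without autoimmune disease here, and a value lower in NOD is the same measurement as a value higher in MRL/lpr.

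Both strains are used as models of Sjögren's syndrome, in which lymphocytes gather in foci in the lacrimal and salivary glands. The lpr mutation disrupts Fas, a death receptor that removes activated lymphocytes, and MRL/lpr females develop heavy lacrimal infiltrates along with lymphadenopathy and autoantibodies. NOD mice develop autoimmune diabetes, carry an unusual major histocompatibility complex (MHC) and are known for lacrimal disease that is stronger in males than in females. Within an inflamed gland, interferon binds receptors that activate STAT and IRF transcription factors, and these bind short promoter elements to induce chemokines, GTPases, immunoproteasome subunits and MHC chains. Fewer cells of a type and less RNA per cell cannot be told apart in RNA from whole glands, and this holds for every gene below.

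The pools of a group were alike, with exceptions that touch a few results. Pearson's r of log2 signals over all probes lay between 0.964 and 0.977 among MRL/lpr pools and between 0.915 and 0.961 among NOD pools on CL, against 0.891 to 0.947 between strains. On Affy it was 0.953 to 0.967, 0.964 to 0.968 and 0.916 to 0.938. CL spots marked near background made up 48.4 to 50.5% of each MRL/lpr array and 56.5 to 57.8% of each NOD array. On Affy, 31.5 to 35.5% of probe sets were under the floor in MRL/lpr and 33.1 to 40.05% in NOD. MRL/lpr P replicate 1 carried salivary gland transcripts. Bpifa2, a secreted protein of the parotid gland, had CL signals of 2239, 0.451 and 2.99 in the MRL/lpr pools and of 1.496, -0.0336 and 0.965 in the NOD pools, and amylase Amy1 was at 62436, 123 and 148 and at 82.1, 53.2 and 23.04 on Affy. Of the salivary list, 3 of 7 genes on CL and 8 of 19 on Affy were more than 2 log2 units higher in that pool than in both other MRL/lpr pools, and no salivary gene was called different between strains. In the opposite direction, 147 CL probes in NOD P replicate 2 and 249 in replicate 3 lay more than 2 log2 units below both other NOD pools, among them Pip, the prolactin-induced tear protein, at 2251, 14.6 and 1743. The 3 strain markers with a known inherited difference, Fas, H2-Ea and Hc, gave little. By the brightest probe none of the 3 was called on Affy, nor was the 1 tested on CL, Fas. Fas CL signals were 0.220, 0.259 and 0.382 in MRL/lpr and 0.432, 0.713 and 0.633 in NOD, without overlap (limma, adjusted p = 0.281). H2-Ea encodes an MHC class II chain that NOD mice do not make. The dimmer of its 2 probe sets was at 140, 141 and 208 against 22.2, 14.5 and 33.9 (limma, adjusted p = 0.0286, and 0.0503 without MRL/lpr P replicate 1).

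**Figure D1:**
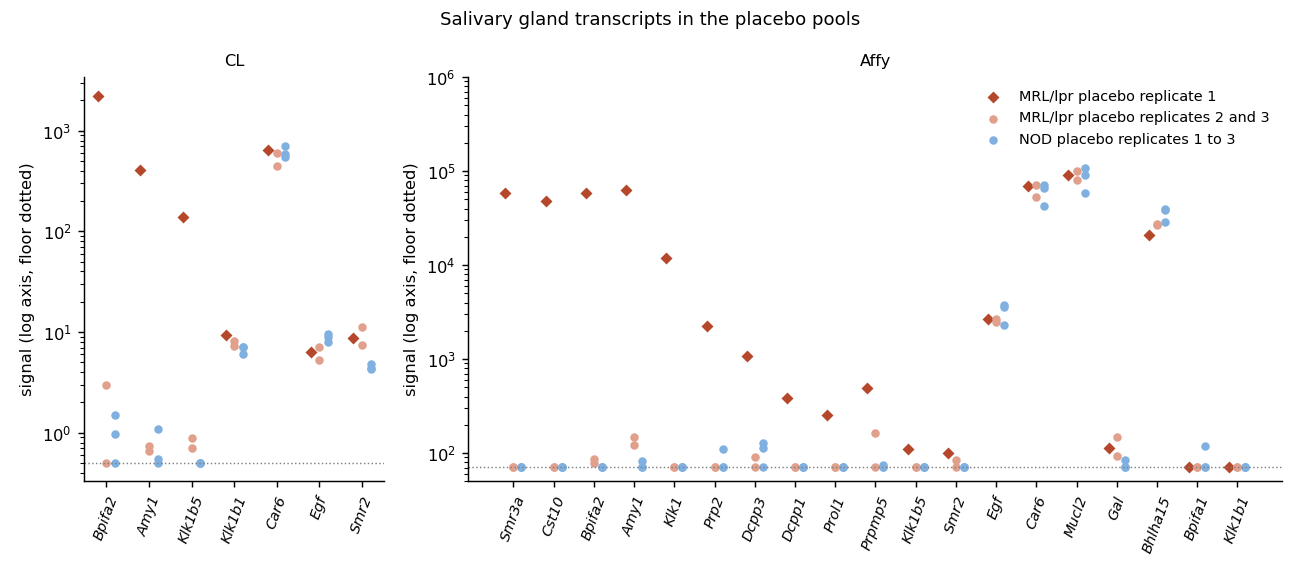
Signal of each tested salivary gland gene in the 6 P pools on CL (left) and Affy (right), on log axes with the floor dotted. Diamonds are MRL/lpr P replicate 1, which stands far above the other 5 pools for 3 of 7 genes on CL and 8 of 19 on Affy.

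Probes were called in both directions. On CL, 635 of 13615 probes (4.66%) were called higher in NOD and 664 (4.88%) lower, tested with limma at an adjusted p (Benjamini-Hochberg) under 0.05. Which count was the larger on CL turned with the setting, for example 759 higher and 664 lower with the 6 P arrays alone and 579 and 521 without NOD P replicate 1. On Affy, 318 of 17891 probe sets (1.78%) were higher and 637 (3.56%) lower. The Affy split depended on how arrays were scaled: 33.3% of calls were higher in NOD after scaling to an equal trimmed mean, 46.1% (339 higher, 397 lower) when each array was scaled to its own median, and 68.5% (87 higher, 40 lower) for signals as deposited. Signals as deposited moved the median of all probe sets by 0.468 on the log2 scale, so that directions below are relative to an equal trimmed mean. Among the called probes the 3 NOD pools lay wholly on 1 side of the 3 MRL/lpr pools for 634 (higher) and 664 (lower) CL probes and for 315 and 637 Affy sets. The median difference of called probes was 1.15 and -1.31 on the log2 scale on CL and 1.28 and -1.55 on Affy. A bound is all that can be given if no pool of a group rose above background, which applied to 318 of the lower and 221 of the higher CL probes and to 45 and 10 Affy probe sets.

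Taking the brightest probe of each gene, 409 of 8959 genes (4.57%) were higher and 524 (5.85%) lower on CL. Affy called 182 of 10406 genes higher (1.75%) and 431 lower (4.14%). Of the 6808 genes tested on both platforms, 53 (0.778%) were higher and 182 (2.67%) were lower in NOD on both. Concordance was as follows: 40.5% of the genes lower on CL were also called lower on Affy, whereas 17.6% of those higher on CL were also called higher on Affy. Signs matched more often than calls, for 92.9% of the genes lower on CL and 74.1% of those higher on CL. Both platforms were hybridized with the same RNA pools, so that a match between them is no biological replicate.

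**Figure D2:**
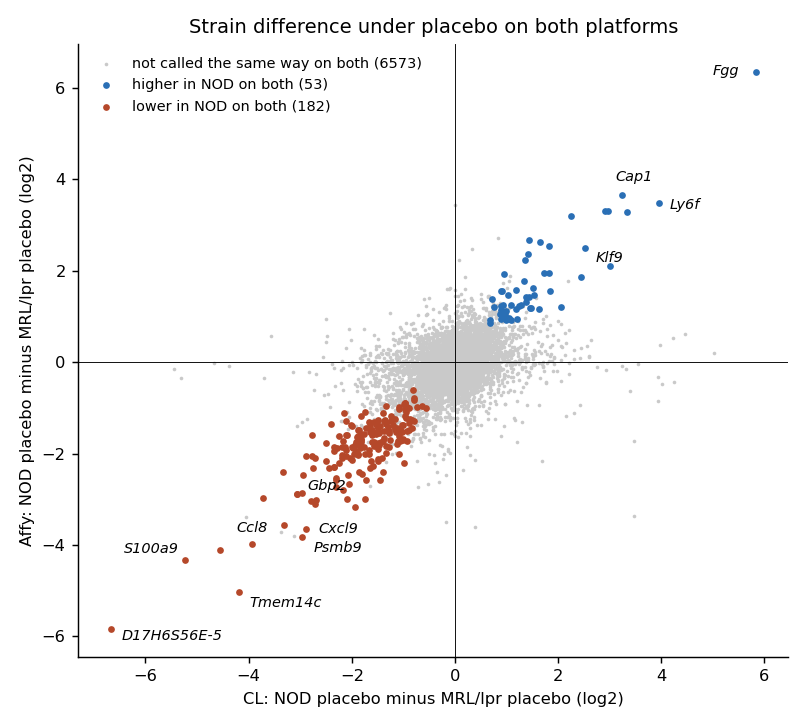
Log2 difference, NOD minus MRL/lpr under P, on CL (x axis) and on Affy (y axis), for 6808 genes. Coloured points are the 53 genes called higher and the 182 called lower in NOD on both platforms, with Fgg at the upper right and D17H6S56E-5 at the lower left.

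The 10 genes with the largest concordant fall were D17H6S56E-5, S100a9, Tmem14c, S100a8, Ms4a4b, Ccl8, Psmb9, Ubd, Cxcl9 and Gbp2. Cxcl9 is the chemokine by which interferon gamma draws Cxcr3-bearing T cells. Its CL signals, in units of the array median, were 11.8, 16.1 and 9.70 in the MRL/lpr pools and 1.55, 1.29 and 2.24 in the NOD pools. On Affy, with each array scaled to a trimmed mean of 500, they were 1177, 1389 and 878 and 68.8, 10.6 and 143. The lowest MRL/lpr pool was above the highest NOD pool on both platforms, and the difference was -2.89 ± 0.30 (log2, SE; adjusted p = 0.000109) and -3.66 ± 0.31 (adjusted p = 4.6e-07), n = 3 pools per strain in limma. Ccl8, a chemokine for monocytes and T cells, stood at 52.6, 62.8 and 52.4 against 6.13, 3.47 and 8.21 on CL and at 10876, 11559 and 9852 against 951, 734 and 1097 on Affy. MRL/lpr pools thus had 9.98 and 11.7 times the NOD signal of Ccl8 (adjusted p = 2.06e-05 and 1.34e-08, limma). Chemokines and their receptors as a list held 14 lower and 1 higher of 37 genes on CL and 5 lower and none higher of 37 on Affy. T cell chemoattractant Ccl5 (-2.79 and -3.04 on the log2 scale) and myeloid chemokine Ccl6 (-1.84 and -1.76) fell on both.

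Gbp2, an interferon-induced GTPase that attacks the vacuoles of pathogens, had CL signals of 7.70, 9.04 and 9.76 in MRL/lpr and of 0.756, 1.26 and 1.21 in NOD. Since every NOD spot was near background, the fall on CL was at least 6.36-fold (adjusted p = 0.00141). Affy signals of 2696, 3197 and 3204 against 474, 331 and 445 gave a 7.34-fold fall (adjusted p = 4.75e-08, limma). Here and below, "at least" sets the mean of the brighter group against the lowest signal above background on each array of the dimmer group. Ubd, a ubiquitin-like protein induced by interferon gamma and tumor necrosis factor, was at 11.4, 14.5 and 9.83 against 1.33, 0.692 and 0.759 on CL, at least 8.46-fold lower in NOD, and at 977, 1038 and 734 against 151, 67.7 and 145 on Affy. No pool of the strains overlapped for either gene. The call for Ubd and for Gbp2 on Affy was lost with signals as deposited (adjusted p = 0.126 and 0.0533, limma).

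The interferon-induced list moved with them. On CL 17 of its 33 tested genes were lower in NOD and 1 higher, with a median of -1.298 on the log2 scale, and on Affy 22 of 36 were lower and none higher, with a median of -1.54. The medians of all named genes were 0.03 and -0.02. The 11 genes lower on both platforms were Ifit3, Irf1, Irf9, Gbp2, Igtp, Iigp1, Irgm1, Irgm2, Ifi47, Trim30a and Ifitm3. Igtp, Irgm1 and Irgm2 are immunity-related GTPases that act on membranes around intracellular pathogens. Igtp was at 8.73, 10.6 and 7.36 in MRL/lpr against 0.845, 1.37 and 1.23 in NOD on CL and at 2859, 3691 and 2733 against 357, 573 and 362 on Affy. Irgm1 had differences of -2.19 and -2.09 on the log2 scale, and Irgm2 of -2.75 and -2.32. Tgtp1, a GTPase of the same family measured by CL alone, was at 40.3, 53.5 and 40.5 against 4.25, 4.32 and 5.63 (-3.24 ± 0.27, adjusted p = 1.71e-05). With MRL/lpr P replicate 1 left out, 13 of these 17 genes on CL and 16 of the 22 on Affy were also called lower. Among all named genes that fit called 321 lower on CL and 256 on Affy, which are totals and not counts of kept calls. With signals as deposited 1 gene of the list was called lower on Affy, and its median was -0.91 where that of all genes was 0.52.

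Promoter windows of RefSeq (GRCm38.p6, from 250 bases before a gene's start to 50 after it) were searched for an interferon-stimulated response element (ISRE)-type match, GAAANNGAAA or TTTCNNTTTC on the other strand, and for a gamma-activated site (GAS)-type match, TTCNNNGAA, which reads the same on both strands. They are shown for the genes whose fall was described because they carry the letters that STAT and IRF factors are known to read, and both motifs stand in capitals. The genes were chosen after their values were seen.

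Igtp: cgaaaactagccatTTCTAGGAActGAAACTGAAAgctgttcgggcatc
Irgm2: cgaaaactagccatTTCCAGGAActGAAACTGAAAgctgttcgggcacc
Tgtp1: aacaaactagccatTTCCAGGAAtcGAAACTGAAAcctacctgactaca
Gbp2: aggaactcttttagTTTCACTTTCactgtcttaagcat
Irgm1: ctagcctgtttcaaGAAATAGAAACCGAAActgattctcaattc
Ifit3: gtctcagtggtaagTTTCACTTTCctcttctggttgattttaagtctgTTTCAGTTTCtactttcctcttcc

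The Igtp stretch lies at chr11:58199497-58199545 on the plus strand, that of Irgm2 at chr11:58214888-58214936 on the plus strand and that of Tgtp1 at chr11:48992300-48992348 on the minus strand. In each of these 3 the GAS-type match began 11 bases before the ISRE-type match. The ISRE-type match began 34 bases before the annotated start in Igtp, 64 in Irgm2 and 77 in Tgtp1. Gbp2 (chr3:142620590-142620627, plus strand) had a single ISRE-type match, 59 bases before the start. Irgm1 (chr11:48871421-48871464, minus strand) had 2 overlapping ones, 30 and 24 bases before the start, and Ifit3 (chr19:34583359-34583430, plus strand) had 2 separate ones, 156 and 122 bases before it. Of the 11 interferon-induced genes lower on both platforms 10 had a window, and 7 of these (70%) held an ISRE-type match, as did 24 of 38 windows of the whole list (63.2%) and 3.99% of all 27025 genes. Over every gene lower in NOD on both platforms the share was 21 of 136 (15.4%), over those higher on both 1 of 46 (2.17%), and over all genes tested on both 211 of 5514 (3.83%). GAS-type matches were in 14 of 136 (10.3%) of the lower genes and in 9.55% of all genes. A match describes letters in a window and no binding was measured.

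MHC class I presentation fell as well, with probes that disagreed within some genes. Of the class I chains and peptide-loading list 9 of 17 genes were lower and 1 higher on CL, and 9 of 17 were lower and none higher on Affy. Psmb9, an immunoproteasome subunit that cuts peptides for class I molecules, was at 14.2, 13.5 and 7.68 in MRL/lpr against 1.64, 1.17 and 1.63 in NOD on CL and at 2346, 2515 and 1900 against 161, 134 and 181 on Affy. The fall was 7.77-fold on CL (adjusted p = 0.000177) and 14.2-fold on Affy (adjusted p = 3.34e-09), and no NOD pool reached any MRL/lpr pool. Psme1, which activates the proteasome, fell by 2.76 and 1.601 on the log2 scale. Antigen presentation by class II followed the same course in H2-Aa (-1.57 and -1.75), H2-Eb1 (-1.53 and -1.57) and Ctss (-2.10 and -2.99), the protease that trims the invariant chain. Of 11 class II genes 5 were lower and 1 higher on CL and 4 lower and none higher on Affy. H2-Ab1 went against them on CL, where its probe was near background in all MRL/lpr pools and at least 7.78-fold higher in NOD, at 8.39, 6.69 and 7.98. The brightest Affy set for H2-Ab1 gave 2580, 3014 and 1920 in MRL/lpr and 1560, 1256 and 1306 in NOD, a difference of -0.85 that was not called (adjusted p = 0.105, limma).

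Several class I genes could not be given 1 direction. Of 9 H2-D1 probe sets 2 were lower and 3 higher in NOD. The brightest H2-D1 set was at 18647, 19037 and 12942 in MRL/lpr and at 242, 44.5 and 53.3 in NOD, whereas another was at 914, 899 and 720 against 9532, 8382 and 14545. Of 4 H2-K1 sets 1 was lower (-1.31 on the log2 scale) and 1 higher (5.03). H2-T23, the non-classical chain that NK cell receptors inspect, was on CL alone, at 56.0, 59.2 and 34.8 against 0.364, 0.711 and 0.446, at least 35.2-fold lower in NOD. Its neighbour in name, H2-T10, was higher on CL (2.93). The strains carry different MHC haplotypes, and how far sequence differences under the probes move these values was not tested. Calls were dense in this stretch of chromosome 17. Between H2-K1 and H2-M3, in RefSeq gene order, 31.2% of 77 genes on CL were called (6 higher, 18 lower) against 10.2% of genes elsewhere, and 13.5% of 96 genes on Affy (2 higher, 11 lower) against 5.82%. With the H2 genes left out the shares were 25.0% of 60 and 11.5% of 78. Psmb9 and Ubd lie in it, and so does D17H6S56E-5, which had the largest concordant fall of all: CL signals of 146, 104 and 114 against 1.36, 0.417 and 2.40, and Affy signals of 7785, 8202 and 6336 against 180, 24.2 and 172.

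Every called marker of macrophages and dendritic cells was lower in NOD. On CL 17 of 31 were lower and none higher (median -1.28 on the log2 scale), and on Affy 27 of 36 were lower and none higher (median -1.604). The 15 genes lower on both platforms were Lyz2, C1qa, C1qb, Fcgr2b, Fcer1g, Tyrobp, Aif1, Cd53, Itgb2, Ptprc, Mrc1, Cyba, Lst1, Ly86 and Folr2. Signals summed over the list were 217 to 269 in the MRL/lpr pools and 67.6 to 92.7 in the NOD pools on CL, and 40039 to 46702 against 11054 to 13281 on Affy, so that the groups did not overlap. Tyrobp, the adaptor through which myeloid and NK cell receptors signal, was at 8.83, 9.24 and 5.53 against 1.68, 1.23 and 0.766 on CL and at 1738, 2308 and 1864 against 616, 384 and 403 on Affy. Mpeg1, a pore-forming protein of macrophages, was measured by Affy at 2320, 2434 and 2016 against 294, 250 and 278, an 8.23-fold fall (adjusted p = 3.29e-07, limma). Adgre1, the F4/80 antigen (-2.07), and Clec7a, the beta-glucan receptor dectin (-2.07), fell on Affy, and neither was tested on CL. Of these lower genes, 15 on CL and 17 on Affy were also called without MRL/lpr P replicate 1. With signals as deposited none was called on Affy, and the list's median was -1.02 beside 0.52 for all genes.

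**Figure D3:**
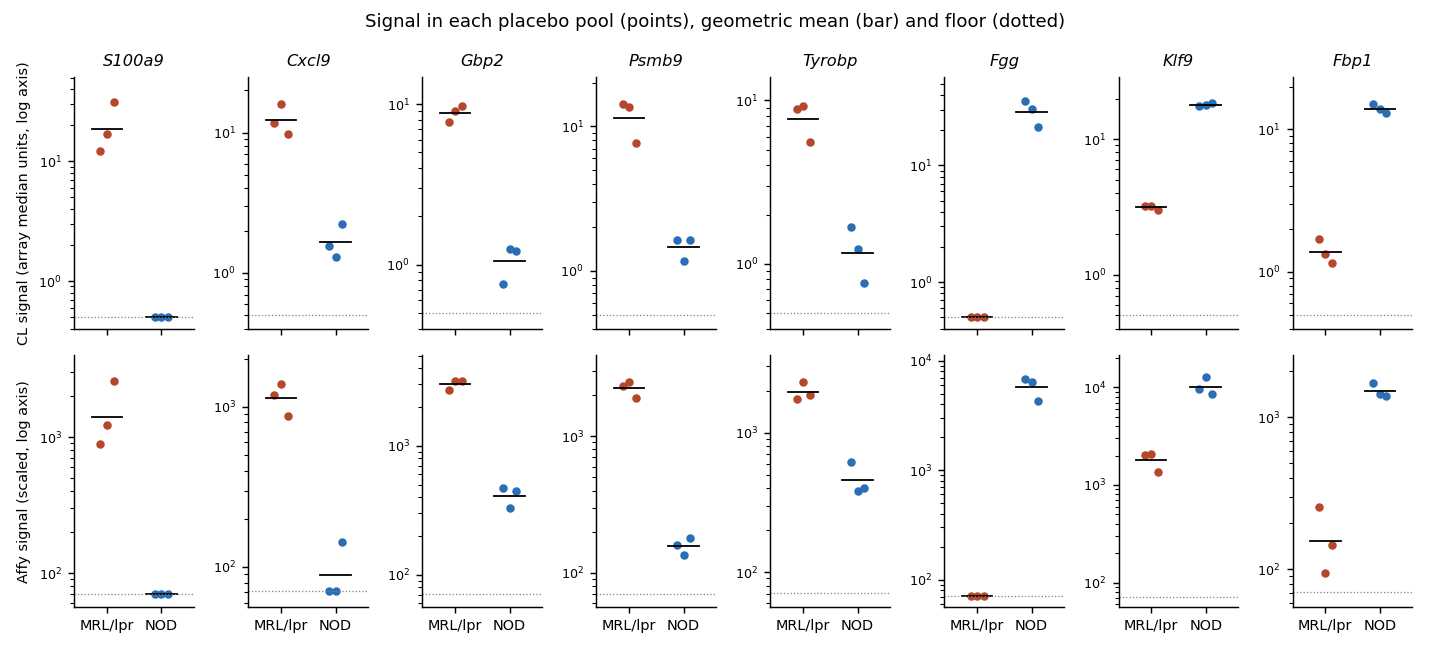
Signal of 8 genes in each of the 3 MRL/lpr and 3 NOD P pools on CL (top) and Affy (bottom), on log axes, with geometric means as bars and the floor dotted. The first 5 genes were lower and the last 3 higher in NOD, with no overlap of the strains on either platform.

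Neutrophil genes were among the largest falls. Of 12 neutrophil and mast cell markers 9 were lower and 1 higher on CL, and of 13 on Affy 7 were lower and none higher. S100a8 and S100a9 form calprotectin, the abundant calcium-binding dimer of neutrophils and monocytes. S100a9 was at 12.2, 17.1 and 31.7 in MRL/lpr and at 0.178, 0.384 and 0.435 in NOD on CL, at least 13.6-fold lower (adjusted p = 1.71e-05). On Affy it was at 895, 1227 and 2564 against 18.9, 52.3 and 58.2, at least 20.0-fold lower (adjusted p = 4.95e-06, limma). S100a8 was at 7.73, 9.95 and 20.8 against 0.479, 0.0733 and 0.0656 on CL, and at 1130, 1024 and 1791 against 71.0, 36.8 and 80.02 on Affy. MRL/lpr P replicate 3 was the highest pool for both subunits on both platforms. Granule proteins Ngp (-1.99 and -2.14 on the log2 scale) and Camp (-2.19 and -2.03), the precursor of an antimicrobial peptide, were lower too. Ms4a2, a chain of the IgE receptor of mast cells, was the exception on CL (1.07, adjusted p = 0.0239, and 0.0864 without MRL/lpr P replicate 1).

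Complement components, many of them macrophage products, held 7 lower of 10 genes on CL and 6 lower of 17 on Affy, with none higher. C1qb, a chain of the first classical component, had CL signals of 56.7, 63.0 and 42.7 against 14.3, 13.04 and 19.7 and Affy signals of 1841, 2324 and 2109 against 402, 319 and 435. Factor B of the alternative pathway, Cfb, fell by 2.78 and 2.06 on the log2 scale. Of 31 cytokine and receptor genes on CL and 39 on Affy 6 were lower on each and none was higher (3 on Affy without MRL/lpr P replicate 1), and the Affy median of -0.40 became 0.08 with signals as deposited. Il1b and Il18, both released by macrophages after cleavage by caspase-1, were lower by 1.39 and 1.38 on CL and by 1.72 and 1.67 on Affy. Toll-like receptors and innate sensors held 5 lower and 2 higher of 20 genes on CL (2 and 1 without that pool) and 3 lower of 18 on Affy. Tlr2, which senses bacterial lipoproteins, was lower on both (-1.48 on each), while Nod2, a sensor of bacterial cell wall, was higher on CL, at 7.001, 10.7 and 12.04 against 45.7, 50.5 and 36.9. With each of the 12 arrays of a platform left out in turn, the Tlr2 call held 11 times on CL and 3 times on Affy.

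Lymphocyte markers differed less than those of myeloid cells in count and median, but on CL more of them were dim. There, 6 of 18 T cell, 6 of 15 cytotoxic and 6 of 16 B cell genes were near background in every P pool. That held for 4 of 31 macrophage and dendritic cell genes. In the order T cell, cytotoxic and B cell, differences were negative for 15, 10 and 10 of these genes on CL. On Affy they were negative for 19 of 20, 12 of 12 and 15 of 17. On CL 4 of 18 T cell markers were lower and 1 higher, and on Affy 4 of 20 were lower (2 without MRL/lpr P replicate 1) and none higher. Cd3d, a chain of the T cell receptor complex, was at 3.71, 5.75 and 3.56 against 1.24, 0.969 and 1.305 on CL, at least 3.06-fold lower, and at 649, 668 and 407 against 101, 77.4 and 152 on Affy. Cd2, an adhesion receptor of T cells, fell by 1.75 and 1.58 on the log2 scale. Ms4a4b, a tetraspanning protein of T cells, was among the 10 largest falls at 19.8, 20.3 and 16.97 against 1.89, 0.594 and 1.73 on CL and at 1628, 2043 and 1296 against 109, 36.8 and 147 on Affy. Of cytotoxic and NK cell genes 5 of 15 were lower on CL and 1 of 12 on Affy, Gzmk on both (-2.19 and -1.86). Gzmb, a granzyme of killer cells, was called higher on CL alone, at 0.450, 0.361 and 0.372 against 1.84, 1.97 and 2.45 (limma, adjusted p = 0.00124). Its MRL/lpr signals were under the floor of 0.5, and the call was lost with another background correction and normalization (limma, adjusted p = 0.0551). On Affy Gzmb was near background in all NOD pools and was not called, and all 12 genes of this list tested there had negative differences. Of B cell markers none of 16 was lower and 1 higher on CL (Tnfrsf13b, a receptor for BAFF and APRIL), and 1 of 17 was lower on Affy, and neither was called without MRL/lpr P replicate 1. Ms4a1, the CD20 antigen, was at 2.27, 2.45 and 1.31 against 1.29, 0.815 and 1.44 on CL, and the strains overlapped. Foxp3, which specifies regulatory T cells, showed no called difference on CL (0.00 ± 0.25) or Affy (-0.29 ± 0.28, adjusted p = 0.723, limma). Floored signals give 0.00 wherever no pool exceeds the floor, so the CL value cannot be read as equal levels in the strains.

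Other members of the Ms4a family, whose products span the membrane 4 times in leukocytes, were read after their values were seen. Ms4a6c (-1.94 and -1.81), Ms4a6d (-1.61 and -1.599) and, on Affy alone, Ms4a7 (-2.23) were lower in NOD. Ms4a6b was one of 8 genes called in opposite directions on the platforms, at least 1.63-fold higher in NOD on CL from signals close to background and lower by 2.16 on the log2 scale on Affy, at 1170, 1595 and 1229 against 374, 191 and 362.

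Immunoglobulin transcripts had large differences on Affy, and their probe sets did not move as one. Of 10 Ighm sets, for the IgM heavy chain locus, 7 were lower and 1 higher in NOD. The brightest Ighm set was at 45047, 48409 and 36209 in MRL/lpr and at 240, 163 and 293 in NOD, a 190-fold fall, while another was at 76.4, 20.2 and 11.1 against 3007, 4259 and 4131. The brightest of 3 Ighg3 sets, for the IgG3 chain, was at 14070, 17256 and 9916 against 5.55, 5.81 and 11.5, at least 190-fold lower, and the other sets were not called. Igkv14-111, a light chain variable segment, was at least 20.7-fold lower. The plasma cell and immunoglobulin list does not hold the symbols Ighm, Ighg3 and Igkv14-111, so its counts leave these genes out. Of its genes 1 of 6 was lower on CL and none of 8 was called on Affy. Jchain, which joins IgM and IgA polymers, was at 189, 329 and 320 against 209, 259 and 294 on CL and differed by -0.08 ± 0.30 on Affy (adjusted p = 0.968, limma). Mzb1, a chaperone of antibody-secreting cells, was lower on CL (-1.08, adjusted p = 0.0299). Allelic differences at these loci and in the antibodies that each pool made were not tested.

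Fgg, the gamma chain of fibrinogen, had the largest rise in NOD among genes on both platforms. Its CL signals were 0.244, 0.223 and 0.178 in MRL/lpr, all near background, and 35.5, 30.7 and 21.5 in NOD, at least 29.1-fold higher (5.84 ± 0.45 on the log2 scale, adjusted p = 9.41e-06). Affy signals were 10.3, 49.7 and 7.74 against 6837, 6442 and 4265, at least 81.2-fold higher (6.34 ± 0.35, adjusted p = 1.32e-09, limma). Fgb, the beta chain, was not called on CL at 0.142, 0.0232 and 0.179 against 0.545, 0.483 and 0.780 (adjusted p = 0.73). A search of other liver-type products was made after these values were seen. Murinoglobulins Mug1 and Mug2, protease inhibitors of mouse plasma, were higher: Mug1 was at 0.821, 1.85 and 1.71 against 8.55, 11.5 and 12.6 on CL and at 7.35, 45.0 and 73.0 against 684, 657 and 773 on Affy, and Mug2 rose by 2.54 on CL. Proc, the anticoagulant protein C, rose by 1.72 and 1.95, and Gpld1, a plasma phospholipase that releases anchored proteins, by 1.83 and 1.95. Serpina1b, an alpha-1-antitrypsin, went the other way (-1.08 and -2.001). Albumin (Alb), transthyretin (Ttr), Ahsg, haptoglobin (Hp), prothrombin (F2) and F10 were not called on any platform that tested them, and no P pool had an Alb signal above 125 on Affy. Calls among these liver-type genes thus went both ways or were not made.

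The other 9 genes of the 10 largest concordant rises were Ly6f, Cap1, Fbp1, Mug1, Calml4, Psmc3ip, Gpbp1l1, Klf9 and Rdh16. Fbp1, a gluconeogenic enzyme, was at 1.70, 1.34 and 1.16 against 15.1, 13.9 and 13.1 on CL and at 256, 94.8 and 145 against 1675, 1416 and 1374 on Affy, about 10.1-fold and 9.76-fold higher (adjusted p = 2.41e-06 and 4.38e-06, limma). Klf9, a Krüppel-like transcription factor that glucocorticoids induce, was at 3.22, 3.20 and 3.00 against 17.7, 17.8 and 18.5 on CL and at 2026, 2097 and 1368 against 9667, 12644 and 8623 for the brightest of 7 Affy sets. Klf9 pools were close together within each strain on CL, and 3 of the 7 Affy sets were higher. Cap1, which recycles actin monomers, rose 9.46-fold and 12.6-fold. Calml4, a calmodulin-like protein, was at 2.41, 2.48 and 3.55 against 20.0, 23.3 and 19.3 on CL and at 179, 214 and 248 against 2108, 2360 and 1867 on Affy. Psmc3ip, a partner of meiotic recombinases, rose at least 2.55-fold on CL and 9.10-fold on Affy, and Gpbp1l1 at least 4.08-fold and 4.30-fold. Rdh16, a retinol dehydrogenase, was at 0.613, 0.773 and 0.543 against 1.64, 2.08 and 3.33 on CL and rose at least 5.84-fold on Affy (adjusted p = 0.0011, and 0.0618 with the 6 P arrays alone, limma). Pam, which amidates secreted peptides, was looked at after its values were seen and rose 3.14-fold and 6.13-fold.

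Ly6f, which encodes a small protein anchored in the membrane, was at 0.835, 1.20 and 1.21 against 13.3, 14.8 and 22.8 on CL and at 176, 151 and 194 against 1938, 1338 and 2698 on Affy, 15.5-fold and 11.1-fold higher in NOD. Its family, read after this value was seen, was split. Ly6g2 on Affy (3.36 on the log2 scale) and Ly6h on CL (1.52) were higher. Ly6e on CL, at 199, 260 and 184 against 4.35, 4.24 and 2.92, and Ly6d on both (-2.35 and -2.30) were lower. Ly6k, Ly6i and Ly6m were not called. The genes of this family are similar in sequence, and whether probes of one read another was not tested.

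Tmem14c, a mitochondrial membrane protein needed for heme synthesis, was at 8.26, 10.9 and 10.6 against 0.624, 0.293 and 0.0771 on CL and at 2364, 2530 and 2070 against 17.7, 27.1 and 55.8 on Affy, at least 7.12-fold and 32.8-fold lower in NOD. The respiratory chain list had medians of 0.10 on CL and 0.06 on Affy. Of its genes 1 of 39 was lower on CL and 2 of 45 were higher on Affy (0 without MRL/lpr P replicate 1). Together 2.56% of the list on CL and 4.44% on Affy were called, against 10.4% and 5.89% of all named genes. Ndufs5, a subunit of complex I on Affy alone, was nonetheless at 3528, 3562 and 3726 against 526, 318 and 203. Genes tested on CL alone included Rmnd1, of mitochondrial translation, at least 5.28-fold lower, and Sgms2, a sphingomyelin synthase (-3.0004). Higher on CL alone were Zfp979 (at least 12.7-fold), the cartilage collagen Col2a1 (at least 12.96-fold), Slc17a2 (at least 8.88-fold), Tmprss11d, an airway-type serine protease (at least 5.80-fold), and Zbtb6, at 3.61, 3.76 and 4.06 against 37.5, 37.5 and 36.4. On Affy alone BC018473 was at 91.1, 7.77 and 19.9 against 40926, 45054 and 26730, the largest rise of any probe set named here (8.90 ± 0.26 on the log2 scale), although its second probe set was not called. Tmem87a (3.49) and Tmem242 (2.81) were higher as well. Besides Ms4a6b, Slco1a5, an organic anion transporter, and Pdrg1 were called in opposite directions. Slco1a5 was at least 5.63-fold higher on CL and fell by 3.36 on Affy, and Pdrg1 was at 1.32, 1.28 and 1.99 against 16.0, 15.2 and 18.4 on CL and at 1454, 1255 and 1518 against 322, 478 and 505 on Affy.

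Among adipocyte, matrix and cell cycle genes every call was lower in NOD, and most matrix and cell cycle genes were not called. Of 14 adipocyte genes 8 were lower on CL and 5 on Affy (4 and 4 without MRL/lpr P replicate 1), and none was higher. Adipoq, the hormone adiponectin, was at 12.6, 14.03 and 12.6 against 2.79, 3.86 and 4.10 on CL and at 626, 589 and 590 against 217, 104 and 148 on Affy. Fabp4 fell by 1.15 on CL (1.16 on Affy, adjusted p = 0.0743), and Retn by 2.06 on CL alone. The adipocyte signals summed to 80.6 to 98.4 in MRL/lpr and 33.1 to 40.1 in NOD on CL, and their part in other results was not tested. Collagen and fibroblast genes held 10 lower of 28 on CL and 9 of 33 on Affy, with none higher, and 3 and 4 without MRL/lpr P replicate 1. Mmp3, a stromal metalloprotease, was at 6.09, 5.33 and 6.46 against 1.07, 1.05 and 1.44 on CL and at 620, 533 and 628 against 97.6, 194 and 94.0 on Affy, and Col1a2 fell by 1.48 and 1.27. Of cell cycle genes 8 of 22 and 7 of 31 were lower and none higher, and 3 and 4 were lower without that pool. Top2a, a topoisomerase of dividing cells, was at 2.46, 3.23 and 1.99 against 0.699, 0.984 and 0.409 on CL and fell by 1.73 on Affy (adjusted p = 0.0117, and 0.0593 without MRL/lpr P replicate 1, limma).

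**Figure D4:**
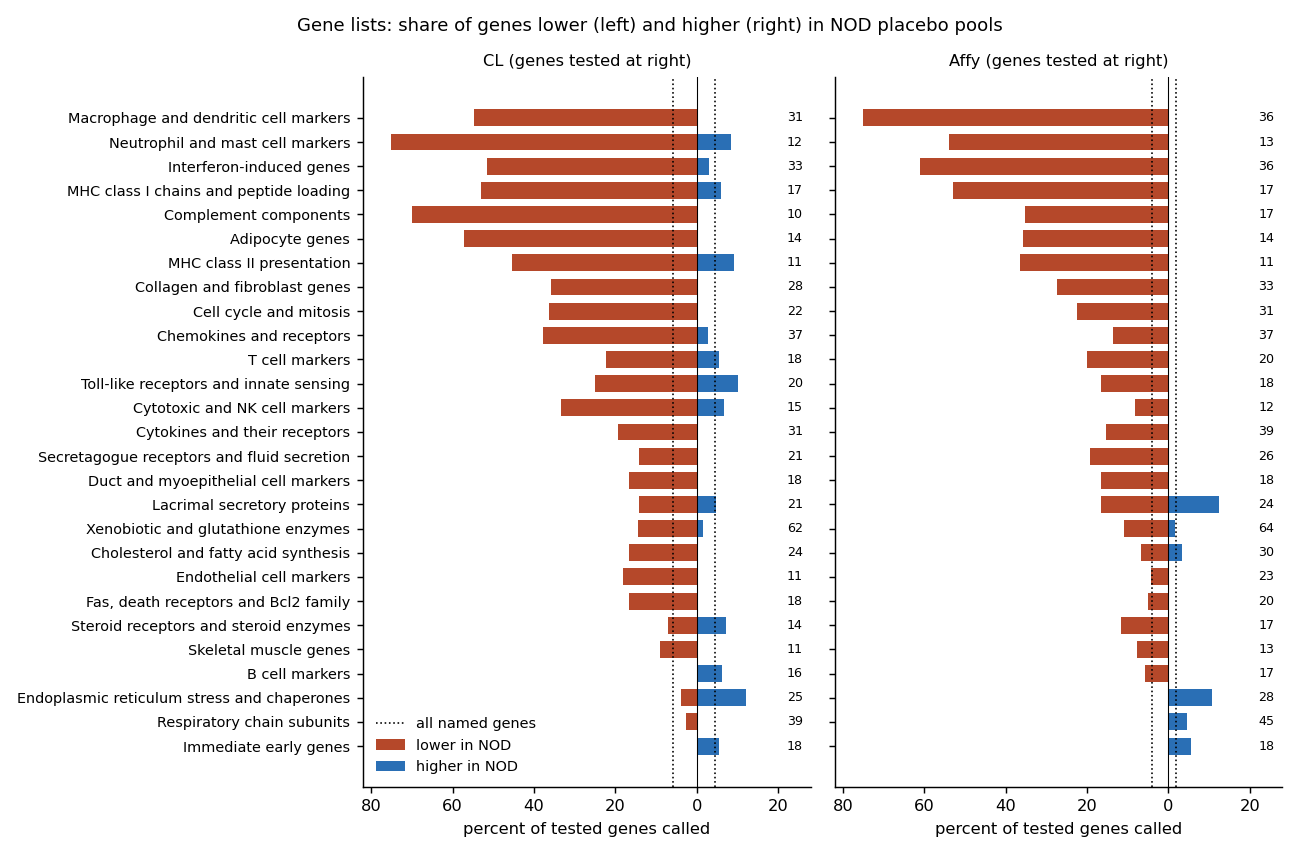
Percent of the tested genes of each list that were called lower (left of 0) or higher (right of 0) in NOD under P, on CL and Affy, with the number tested at the right and the shares over all named genes dotted. The macrophage, neutrophil, interferon, complement and adipocyte lists extend left of the dotted line on both platforms, while B cell markers were lower for 0 of 16 genes on CL and 1 of 17 on Affy.

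Calls among lacrimal secretory proteins went both ways. Of lacrimal secretory proteins 1 of 21 was higher and 3 lower on CL, and 3 of 24 were higher and 4 lower on Affy, with medians of 0.13 and 0.02. Together 19.05% of the list on CL and 29.2% on Affy were called, against 10.4% and 5.89% of all named genes. Scgb1b2, an abundant secretoglobin, was at 1970, 2092 and 2102 against 2620, 2653 and 2532 on CL (0.34 ± 0.21, adjusted p = 0.369), and Aqp5, the water channel of acinar cells, at 51.2, 58.2 and 50.3 against 52.2, 54.4 and 51.1. The strains did not overlap for Scgb1b2, and its difference was not called. Of genes for secretagogue receptors and fluid secretion, 3 of 21 were lower on CL and 5 of 26 on Affy. None was higher, and 3 were lower on each platform without MRL/lpr P replicate 1. Over all named genes 5.85% and 4.14% were lower. Slc12a2 (-1.51 and -1.37) and Fxyd3 (-1.34 and -1.30) of this list were lower on both. Lactoferrin Ltf (-1.75 and -1.08), lysozyme Lyz1 (-1.50 and -1.51) and zinc-binding glycoprotein Azgp1 (-1.23 and -1.18), defence proteins of tears, were lower on both, and Ltf is also a neutrophil granule protein. Lactoperoxidase Lpo was higher on CL alone (0.82, adjusted p = 0.0087). Scgb1b27 was at 2377, 436 and 351 against 2223, 2676 and 3699 on Affy, so that MRL/lpr P replicate 1 overlapped NOD. Without that pool the difference in Scgb1b27 had an adjusted p of 0.000331 in place of 0.0351 in limma, and Scgb2b27 changed alike. Mup5, a pheromone-carrying lipocalin, was at 1377, 239 and 262 against 1435, 1559 and 12506, with MRL/lpr P replicate 1 close to the lowest NOD pool (adjusted p = 0.0394 in limma).

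Of endoplasmic reticulum chaperones 3 of 25 were higher and 1 lower on CL, and 3 of 28 were higher on Affy (1 without MRL/lpr P replicate 1), beside 4.57% and 1.75% of all named genes higher. Creld2, a stress-induced protein of that compartment, was at 46.5, 66.9 and 54.0 against 98.8, 114 and 131 on CL and at 3760, 4963 and 4222 against 6862, 8617 and 9436 on Affy. Hspa5, the chaperone BiP, was 32.5-fold higher by its CL probe, at 3.58, 6.09 and 7.74 against 165, 164 and 214. Its brightest Affy set gave 27425, 32149 and 34894 against 39787, 39214 and 29709 (0.20 ± 0.31, adjusted p = 0.859), and the other Affy set a difference of 1.42. The platforms therefore did not give 1 size for Hspa5. Among genes of xenobiotic metabolism 9 of 62 were lower on CL and 7 of 64 on Affy (6 and 4 without MRL/lpr P replicate 1). On each platform 1 was higher. Over all named genes 5.85% and 4.14% were lower and 4.57% and 1.75% higher. Cyp2b10 was higher on Affy, at 2058, 2537 and 2333 against 4419, 6016 and 5648, and Fmo1 lower (-2.09 on CL and -1.59 on Affy).

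Much of the baseline difference was not found between T-treated pools of the same strains, which share no arrays with the P pools. Under T, 758 CL probes (5.57%) were higher and 932 (6.85%) lower in NOD, and 964 Affy sets (5.39%) and 934 (5.22%). Of the CL probes lower under P, 25.0% were also lower under T, which is 17.8% of those lower under T, and 84 were called higher. Of the Affy sets lower under P, 27.0% were also lower under T (18.4% of the T list), and 93 were called higher. For the probes higher under P, the shares also higher under T were 31.5% on CL (26.4% of the T list) and 42.1% on Affy (13.9% of the T list), and 18 and 5 were called lower. The strain difference itself differed between T and P for 1094 CL probes (8.04%) and 701 Affy sets (3.92%). Among probes lower under P this was so for 42.8% on CL and 42.5% on Affy, with 280 of 284 and 269 of 271 moving toward or past 0. The difference between differences uses the same P arrays that chose these probes, so that part of the move toward 0 comes with the choice.

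The interferon and myeloid lists carried this pattern. Under T the median of the interferon list was 0.61 on CL and 1.09 on Affy, in contrast to -1.298 and -1.54 under P, and the strain difference differed between T and P for 21 of 33 and 27 of 36 genes, each toward higher values in NOD. Macrophage and dendritic cell markers went from medians of -1.28 and -1.604 to 0.17 and 0.46. Of the 10 largest concordant falls 3 were called higher in NOD under T on both platforms, namely Ubd, Cxcl9 and Gbp2, and 4 were still called lower, namely D17H6S56E-5, S100a9, Tmem14c and S100a8. Cxcl9 moved from -2.89 to 1.56 on the log2 scale on CL and from -3.66 to 2.16 on Affy, a change of 4.45 ± 0.43 and 5.82 ± 0.44. The strain difference differed between T and P for 4 and 1 neutrophil and mast cell genes and for 2 and 0 adipocyte genes on CL and Affy, and 4 and 5 neutrophil and mast cell genes, and 4 and 3 adipocyte genes, were called lower both under P and under T. Of the 10 largest rises 7 on CL and 6 on Affy were also called higher under T, with Fgg at 5.38 and 5.79. Ly6f reversed, from 3.95 and 3.47 to -2.53 and -2.30.

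**Figure D5:**
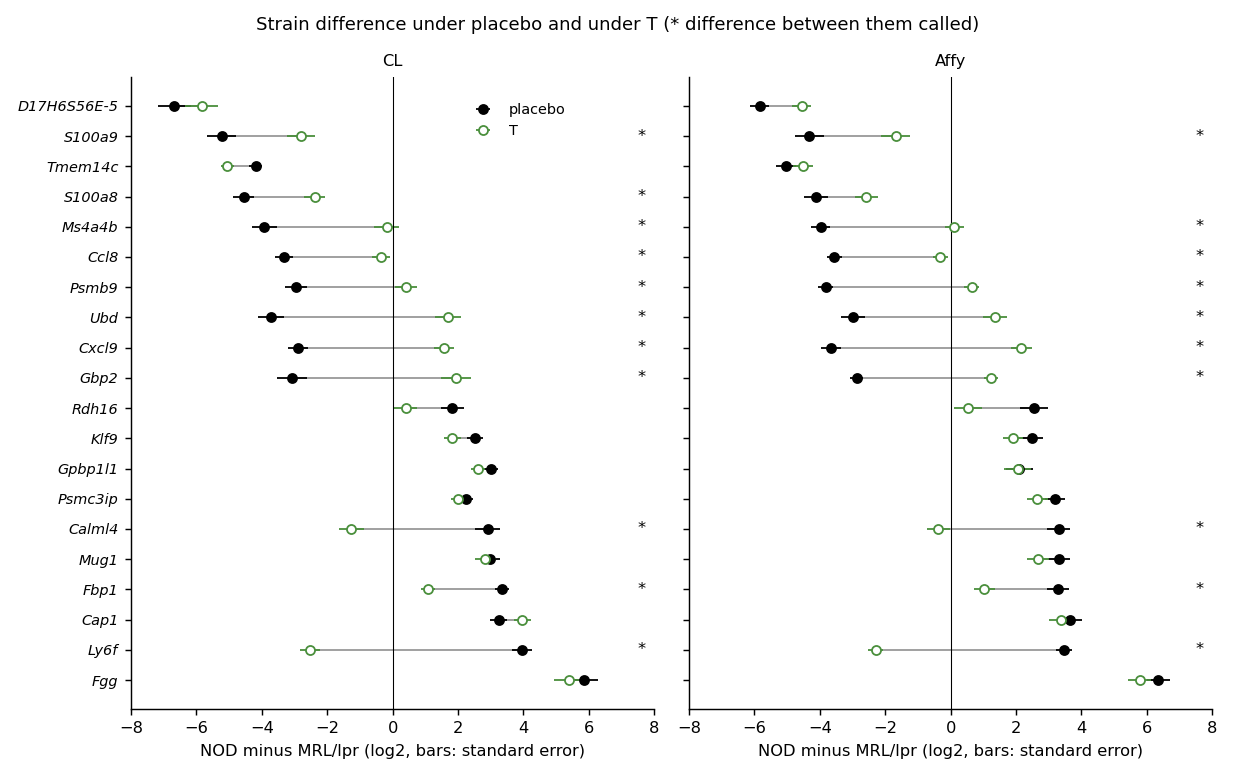
NOD minus MRL/lpr (log2, bars standard errors) under P (filled) and under T (open) for the 20 genes with the largest concordant differences, on CL and Affy, with a star where the difference between them was called. D17H6S56E-5, Tmem14c, Cap1, Mug1 and Fgg kept their place. Cxcl9, Ubd, Gbp2, Psmb9, Calml4 and Ly6f changed sign on both platforms, and Ms4a4b on Affy.

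Leaving out MRL/lpr P replicate 1, the pool with salivary transcripts, lowered the counts. Every called probe kept its sign, but this was fixed in advance wherever the pools of the strains did not overlap. That held for 634 of the 635 higher and all 664 lower probes on CL, and for 315 of 318 and all 637 on Affy. On CL 378 of the 635 higher and 402 of the 664 lower probes were still called, and on Affy 182 of 318 and 379 of 637. The fit without it called 389 and 414 probes on CL and 194 and 389 on Affy. Leaving out MRL/lpr P replicate 2, which carried no salivary signal, gave 407 and 428 and 179 and 391. Among named genes, the call of the brightest probe was lost without MRL/lpr P replicate 1 for Ms4a2, Serpina1b, Tlr2 and Tnfrsf13b on CL and for C1qa, Cd2, Col1a2, Creld2, Ifit3, Ifitm3, Il1b, Ltf, Tlr2 and Top2a on Affy. All 20 genes with the largest concordant differences were called on both platforms with any 1 of the 12 arrays of a platform left out, the highest adjusted p being 0.0330 in limma.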

How the data were processed

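The authors' deposited CL values are spot intensities divided by each array's median, with quality marks, for 17440 probes, and deposited Affy intensities cover 22690 probe sets (the processing notes name GCOS, the methods Microarray Suite with default scaling). The Affy intensities were not on a common scale, so each array was multiplied (by 6.06 to 15.5 in the P pools) to a trimmed mean of 500, leaving out 2% at each end. In T replicates 1, 2 and 3 the factors were 15.8, 19.4 and 22.6 for MRL/lpr and 11.6, 3.33 and 3.54 for NOD. Signals were floored at 0.5 (CL) and 70.5 (Affy), log2 was taken, and probes whose mean exceeded the floor in at least 1 of the 4 groups were tested with limma 3.58.1 (lmFit, eBayes with a trend; R 4.3.3) on the 12 arrays of a platform, with Benjamini-Hochberg adjustment over all probes. Differences of floored values understate changes of dim genes. The smallest adjusted p-values rest on 3 pools per group. Arrays carry no depth, and their number limits the precision. Tables were handled in Python 3.11.15 with pandas 2.3.3 and numpy 2.4.6.

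Symbols came from the platform annotation, which can be old: 11377 CL probes and 20393 Affy sets had 1 symbol, 691 Affy sets had several and were left unnamed, and 6063 and 1606 had none listed.

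Genes were picked by rule as the 10 with the largest concordant rise and fall whose pools did not overlap, and the 5 highest and 5 lowest on each platform without a probe on the other. The rule added up to 3 called in opposite directions, 3 strain checks, up to 4 genes of each of 35 lists by adjusted p and genes named in the study. Not every gene so picked is described. Osbpl3 on CL and Msn on Affy, both named in the study, were called lower and are not described above, and picks from several lists are left out as well. All other genes named, further members of the lists among them, were chosen after their values were seen. The members and lists were chosen with earlier results of these data known. Alternatives were other normalizations, scalings, floors, filters, priors and arrays in the fit, the methods' t-test, each gene's mean over probes, leaving out each pool, and a block for the replicate number.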

Additional observations from a re-analysis of the deposited data

Results flagged for a closer look

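The strain difference under T differed from that under P, by the test of the difference between differences (limma, adjusted over all probes of a platform), for the named genes below, and this is what marked them for a closer look. Each value is the strain difference (NOD minus MRL/lpr, log2) under T minus that under P, so that a positive value says that NOD was relatively higher under T. The P arrays are shared with the comparison that chose most of these genes, and no explanation was tested.

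Among interferon-induced, presentation and immunoglobulin genes, the positive changes on CL were 5.42 for Ubd, 5.0 for Gbp2, 4.45 for Cxcl9, 4.03 for Igtp, 3.99 for Tgtp1, 3.54 for Ifit3, 3.51 for Trim30a, 3.37 for Psmb9, 3.24 for Irgm2, 3.06 for Irgm1, 2.56 for H2-T10, 2.53 for Ctss, 2.38 for H2-Aa, 2.28 for H2-Eb1, 1.79 for H2-Ab1 and 1.62 for Ifitm3. On the same measure, the positive changes on Affy were 5.82 for Cxcl9, 4.46 for Psmb9, 4.32 for Ubd, 4.11 for Gbp2, 3.85 for Igtp, 3.60 for Trim30a, 3.45 for Ighm, 3.31 for Ifit3, 3.30 for Irgm1, 3.25 for Irgm2, 3.22 for Ighg3, 3.17 for H2-K1, 2.98 for H2-Eb1, 2.57 for Ctss, 2.38 for H2-Ab1, 2.14 for Psme1, 2.13 for H2-Aa and 2.06 for Igkv14-111.

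Among chemokine, cytokine, complement and myeloid genes, the positive changes on CL were 3.80 for Cfb, 3.79 for Ccl5, 2.97 for Tyrobp, 2.96 for Ccl8, 2.52 for Tlr2, 2.44 for S100a9, 2.35 for C1qa, 2.19 for Camp, 2.16 for S100a8, 2.14 for Ms4a6b, 2.06 for C1qb, 1.66 for Ccl6, 1.47 for Il18, 1.41 for Il1b and 1.39 for Ngp. By the same test, the positive changes on Affy were 4.63 for Ccl5, 3.79 for Mpeg1, 3.23 for Ccl8, 3.21 for Cfb, 3.17 for Tlr2, 3.12 for Clec7a, 2.90 for C1qb, 2.64 for S100a9, 2.55 for Ms4a6b, 2.47 for Adgre1, 2.38 for Tyrobp and 1.86 for Il18. On the same measure, the negative change on CL was -1.99 for Nod2.

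Among lymphocyte genes, the positive changes on CL were 3.75 for Ms4a4b, 2.78 for Cd2, 2.59 for Cd3d, 2.05 for Gzmk, 1.42 for Mzb1 and 1.12 for Fas. By the same test, the positive changes on Affy were 4.35 for Cd3d, 4.07 for Ms4a4b, 2.89 for Cd2 and 2.09 for Gzmk.

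Among other named genes, the positive changes on CL were 2.74 for Ly6e, 2.74 for Sgms2, 2.56 for Serpina1b, 2.43 for Mmp3, 2.22 for Ly6d, 2.19 for Top2a and 2.02 for Lyz1. On the same measure, the positive changes on Affy were 2.92 for Serpina1b and 2.80 for Mmp3. By the same test, the negative changes on CL were -6.48 for Ly6f, -4.17 for Calml4, -2.25 for Tmprss11d, -2.25 for Fbp1, -1.55 for Creld2, -1.35 for Zbtb6 and -1.19 for Lpo. On the same measure, the negative changes on Affy were -9.15 for Mup5, -5.77 for Ly6f, -3.69 for Calml4, -2.26 for Fbp1, -1.84 for Ly6g2, -1.71 for Cyp2b10 and -1.48 for Creld2.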

How the results depend on the processing

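No named gene changed sign with a call under any alternative, and 3584 gene values across 24 settings on CL and 25 on Affy kept their side of the threshold while 284 lost the call. Among the 81 CL and 77 Affy calls of the genes followed through every setting, which leave out Ms4a2, Tnfrsf13b and the dimmer H2-Ea set, 12 were lost with MRL/lpr P replicate 1 left out, with MRL/lpr P replicate 2 15 and with replicate 3 14, and with NOD P replicates 1, 2 and 3 10, 11 and 12. These losses fell on Serpina1b, Mzb1, Tlr2, Top2a, C1qa, Cd2, Cfb, Col1a2, Creld2, Ifit3, Ifitm3, Il1b, Ltf, Azgp1, Mup5, Scgb1b27 and Scgb2b27. Leaving out 1 array moved the count of probes higher in NOD between 389 and 787 on CL and between 179 and 623 on Affy, and of those lower between 414 and 737 and between 389 and 974. The interferon-induced genes lower in NOD numbered 13 to 18 (CL) and 16 to 23 (Affy), the macrophage and dendritic cell genes 15 to 18 and 17 to 27, and the probes whose strain difference differed between T and P 791 to 1050 and 438 to 1265. The highest Affy counts came without NOD T replicate 1. On Affy the counts higher in NOD were 209, 184 and 188 without NOD P replicates 1, 2 and 3.

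The methods' t-test on unlogged values called 1933 CL probes higher and 1388 lower, and 283 and 242 after Benjamini-Hochberg. On Affy it called 1413 and 1839, and 63 and 106 after adjustment. Scaling each Affy array to its own median gave 397 lower, against 637. Signals as deposited gave 87 higher and 40 lower on Affy, with 1 interferon-induced gene and 0 macrophage and dendritic cell genes lower. That setting cost 46 named calls, and the methods' t-test after Benjamini-Hochberg cost 89. Other causes of these moves were not tested. With a replicate block the counts were 552 higher and 580 lower on CL and 298 and 598 on Affy, with the calls of Serpina1b on CL and Scgb2b27 on Affy lost. Same-numbered pools did not deviate together (CL r values 0.029, 0.005 and -0.072, Affy r values 0.014, 0.020 and 0.010), so that the number was not taken as a pairing. Dim signals limit the sizes that can be given, since 318 CL probes called lower had no NOD pool above background.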

Other observations

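Of B cell markers 6.25% on CL and 5.88% on Affy were called either way under P, beside 10.4% and 5.89% of all named genes. The median of the list under P was -0.13 on CL and -0.63 on Affy. Under T more B cell markers were called higher in NOD than under P, mainly on Affy. The median of the list under T was 0.32 on CL and 1.29 on Affy (log2, NOD minus MRL/lpr). Of its genes 3 of 16 and 9 of 17 were called higher, and 1 CL gene, Ebf1, was called lower. Over all named genes 534 of 8959 on CL and 595 of 10406 on Affy were called higher under T. Class II genes had medians of 0.81 and 1.06 under T. These values come from pools that share no arrays with the P pools, and no explanation was tested.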
